A study of Mus musculus with 16 samples.

Results

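The mRNA of 10 enzymes that make ceramide or turn it over was followed in p53−/−; Myc hepatoblasts treated with sorafenib. They were Sptlc1, Sptlc2, Cers2, Cers5, Cers6, Degs1, Ugcg, Sgms1, Sgms2 and Sphk1, taken by gene symbol from a table of 40840 genes. All 10 passed the filter on low counts, which left 20444 genes to test. The cells are a mouse liver progenitor line that lacks the tumour suppressor p53 and overexpresses the oncogene Myc, and these alleles were shared by all groups. Sorafenib, a multikinase inhibitor used in hepatocellular carcinoma, was given at 8.5 µM. The 4 groups were DMSO for 48 hours, sorafenib for 48 hours, DMSO for 7 days and sorafenib for 7 days, with 4 libraries in each. All libraries came from 1 cell line, so that the results describe this line, and no source used here says whether replicates were separate cultures; p-values then measure the spread between these libraries, which may be technical.

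Ceramide is the central lipid of the sphingolipid pathway. Serine palmitoyltransferase starts the pathway in the endoplasmic reticulum, ceramide synthases attach a fatty acid to the sphingoid base, and a desaturase turns dihydroceramide into ceramide. Ceramide is then built into sphingomyelin or glucosylceramide, or is broken down to sphingosine, which sphingosine kinase phosphorylates; ceramide is known for roles in cell stress and death, and sphingosine 1-phosphate for roles in growth and survival.

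Total counts per library ranged from 16586254 to 30828427. In 1 library, sorafenib for 48 hours replicate 2, genes that follow a place on chromosome 14 in genome order had lower counts. Its counts after that place were lower relative to those before it by 0.73 on the log2 scale against the other libraries of its group, while this step was at most 0.04 in size in every other library. Genes after the place took 14.2% of its counts and 20.6 to 21.4% of those of the other 15 libraries. Of the 10 enzymes, Cers5 on chromosome 15 and Sgms1 on chromosome 19 lie there, and their 48-hour results are given with and without this library. For 7 of the 8 enzymes before the place, all but Sphk1, this library was the highest of its group. Without it the rise at 48 hours was 13.6-fold in place of 14.3-fold for Sgms2, and 1.59-fold in place of 1.64-fold for Cers2. The SD of Sgms2 with sorafenib for 48 hours was 94.2 with this library and 33.3 without it. The labelled cell type was checked against a list of 14 hepatoblast and liver epithelium markers, of which 7 had at least 10 counts in every library. Hnf4a had no count in any library, and Alb had at most 1. Dlk1, a hepatoblast marker, made up most of the list's sum, with means of 32234 and 10444 normalized counts with DMSO and sorafenib at 48 hours. Foxa2 (211 and 722) and Sox9 (213 and 664) were in the other order. The summed level of the list was 35063 to 36425 normalized counts with DMSO and 12963 to 14895 with sorafenib at 48 hours, and 18856 to 20687 and 7097 to 7367 at 7 days. The sum of 5 mesenchyme markers was 46738 to 49825 and 133486 to 154791 at 48 hours, and 66171 to 67940 and 114450 to 119563 at 7 days, in the same order. Col1a1 (41939 and 81072 at 48 hours) and Acta2 (4683 and 65481) carried this sum, while Pdgfrb (1669 and 977) and Des (89.5 and 72.6) were lower with sorafenib. Sums of 4 endothelial and 5 leukocyte markers stayed below 100 normalized counts. Neither of the first 2 sums overlapped between DMSO and sorafenib libraries at either time, and their part in the results below was not tested. In bulk RNA, fewer cells of a type and less RNA per cell cannot be told apart.

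At 48 hours, 9 of the 10 enzymes changed with sorafenib at a false discovery rate (FDR) under 0.05 by the edgeR quasi-likelihood test. By direction, 8 rose and 1, Cers5, fell. Of all 20444 genes, 54.6% changed at this time, 26.9% up and 27.7% down. At 7 days 8 of the 10 changed, 7 up and 1, Sptlc2, down, against 56.8% of all genes, 28.9% up and 27.9% down. The median log2 fold change of the 10 was 0.61 at 48 hours and 0.27 at 7 days, beside −0.05 and 0.02 over all genes tested. In size, without regard to sign, the medians were 0.61 and 0.50 for the enzymes and 0.50 and 0.50 for all genes. DMSO and sorafenib libraries did not overlap for 8 of the 10 enzymes at 48 hours, against 48.0% of all genes, and for 7 of 10 at 7 days, against 56.8%. The share of enzymes that rose was above the background at both times, while the typical size of the 7-day changes was that of all genes. The enzymes were chosen with earlier results of these data known, so that this share is a description and not a test.

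**Figure D1:**
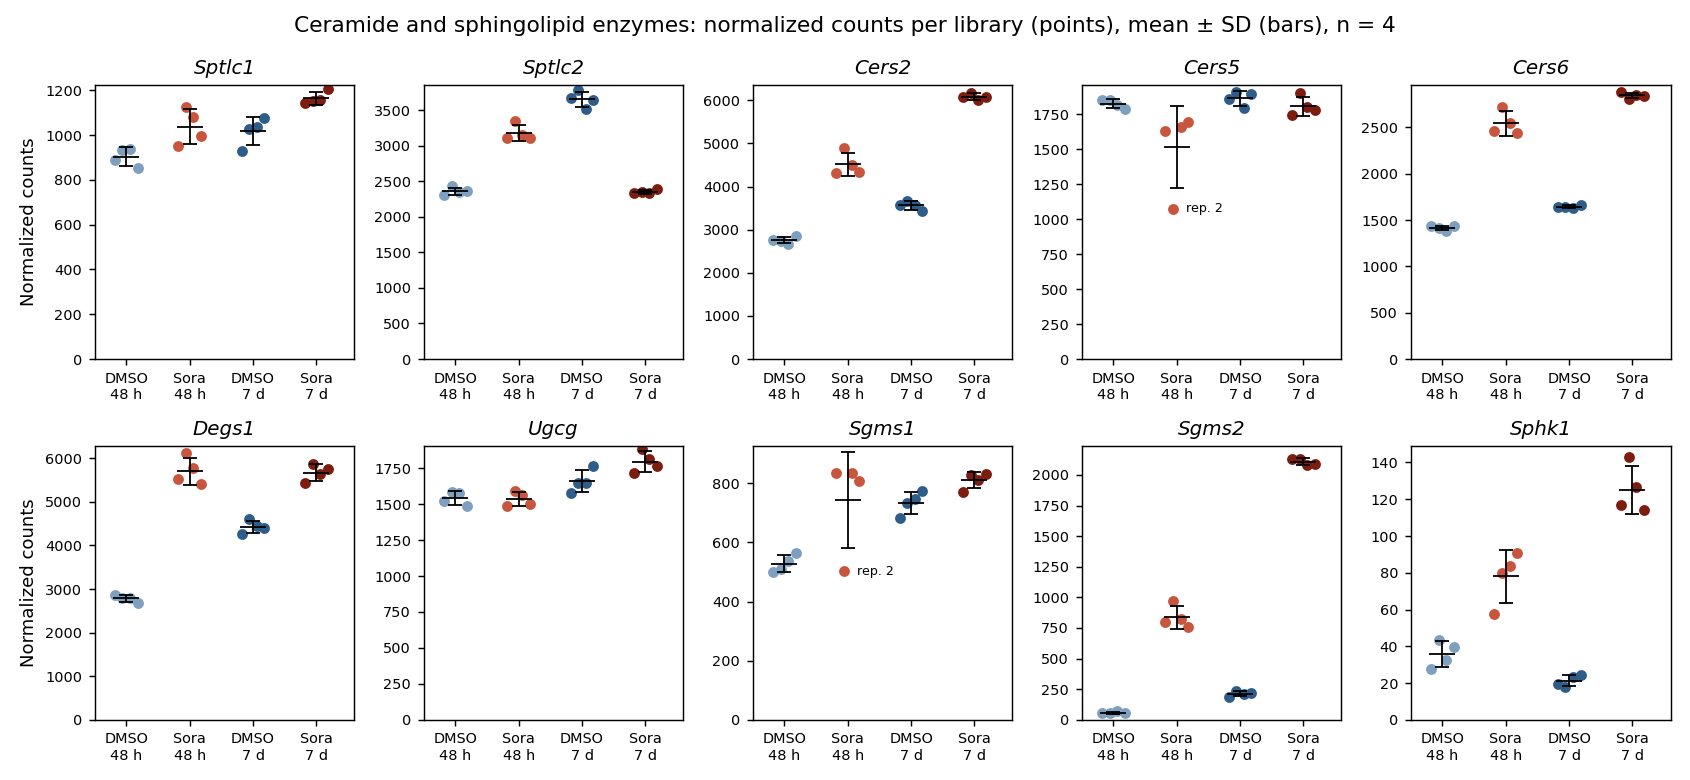
Normalized counts of the 10 enzymes in each library (vertical axes, starting at 0) by group (horizontal axes; Sora, sorafenib); points are libraries, bars the mean and SD of 4 libraries. Sgms2 had the widest range of group means on the log2 scale, from 58.7 with DMSO for 48 hours to 2107 with sorafenib for 7 days. Replicate 2 of sorafenib for 48 hours lies below the others for Cers5 and Sgms1.

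The most responsive enzyme was Sgms2, sphingomyelin synthase 2, which transfers phosphocholine to ceramide, mainly at the plasma membrane (GRCm39 chromosome 3, 131112634 to 131197172, minus strand, 6 exons in the canonical transcript). At 48 hours its normalized counts were 51.8, 58.1, 69.4 and 55.3 with DMSO and 800, 974, 823 and 758 with sorafenib. At 7 days they were 189, 231, 211 and 222 with DMSO and 2133, 2128, 2077 and 2088 with sorafenib. Every sorafenib library lay above every DMSO library, also above those of the other time. The rise was 14.3-fold at 48 hours (log2 fold change 3.83, SE 0.0926, FDR = 8.86e-18) and 9.84-fold at 7 days (3.30, SE 0.0718, FDR = 1.63e-18). The DMSO level itself was 3.65-fold higher at 7 days than at 48 hours (FDR = 1.61e-11). The fold at 7 days was therefore smaller, by 0.54 on the log2 scale (SE 0.127, FDR = 0.00224), although the level with sorafenib was higher, 2107 ± 27.8 (SD, n = 4) against 839 ± 94.2 at 48 hours. The long noncoding RNA Gm36753 overlaps the 5′ end of Sgms2 on the opposite strand, and the strand setting of the counting was not given in the sources used here, so that their reads cannot be told apart with certainty. Gm36753 had a mean of 2.43 and 19.3 normalized counts with DMSO and sorafenib at 48 hours and 4.29 and 38.1 at 7 days, a small amount beside Sgms2.

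Sgms1, sphingomyelin synthase 1, carries out the same reaction in the Golgi (chromosome 19, 32097497 to 32367505, minus strand, 10 exons). At 48 hours its normalized counts were 501, 510, 537 and 565 with DMSO and 834, 502, 836 and 808 with sorafenib. The low value was replicate 2, in which this part of the genome had fewer counts, and the other 3 sorafenib libraries lay above all DMSO libraries. The fold change was 1.42 with all libraries (log2 0.51, SE 0.105, FDR = 0.000368) and 1.56 without replicate 2 (0.64, SE 0.053, FDR = 3.22e-15). At 7 days the level was 734 ± 37.7 with DMSO and 811 ± 27.4 with sorafenib, with overlapping libraries. This difference did not pass the test with all libraries (1.10-fold, log2 0.14, SE 0.0999, FDR = 0.239), but did when replicate 2 of the 48-hour sorafenib group was left out, with an SE of 0.0459 (FDR = 0.00603). The log2 fold change was lower at 7 days than at 48 hours by 0.50 without that library (FDR = 3.93e-08) and by 0.36 with it (FDR = 0.058).

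Levels of different genes were compared as normalized counts per kilobase of annotated exon. Sgms2 made up 22.3% ± 2.1 (SD, n = 4) of the summed Sgms1 and Sgms2 level with DMSO for 48 hours. With sorafenib for 48 hours it made up 74.3% ± 6.1, or 71.3% without replicate 2. The share was 42.9% ± 1.4 with DMSO for 7 days and 87.0% ± 0.46 with sorafenib. The larger share thus passed from Sgms1 to Sgms2 at both times. With the length of the longest transcript in place of all exons, the shares were 12.0, 58.1, 26.2 and 76.1% in the same order, with the same change of the larger share. The 58.1% includes replicate 2, whose Sgms1 counts were lowered, and was not worked out without it. Without that library the means with sorafenib for 48 hours were 825.5 normalized counts for Sgms1 and 793.5 for Sgms2, before division by length. The difference had an exact two-sided permutation p of 0.0286 at either time, the smallest that 4 against 4 libraries allow (0.0303 after Benjamini-Hochberg adjustment over 18 tests of shares, which were chosen after the values were seen).

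Upstream sequences were read from RefSeq for GRCm38.p6, whose coordinates are not those of GRCm39. All 10 enzymes matched, with 23 windows of 250 bases before an annotated start. They are shown, where no base of the window is transcribed, for the sphingomyelin synthases, which catalyse 1 reaction and differed in response, and for Degs1, which has 1 annotated start. A base counts as transcribed where it lies in a 21-base stretch shared with an annotated transcript of the gene, which left windows 1 and 2 of Sgms2 and 3 and 4 of Sgms1. The Degs1 window is printed in its longest untranscribed stretch, which ends 29 bases before the window's end. Capitals mark a match, on either strand, to AP-1 (TGANTCA, the site of FOS and JUN factors), the CCAAT box (CCAAT, bound by NF-Y) or the E-box (CACGTG, bound by MYC with MAX and by other factors); no 2 capital runs overlap.
Sgms2 window 1, chr3:131491444-131491693, minus strand: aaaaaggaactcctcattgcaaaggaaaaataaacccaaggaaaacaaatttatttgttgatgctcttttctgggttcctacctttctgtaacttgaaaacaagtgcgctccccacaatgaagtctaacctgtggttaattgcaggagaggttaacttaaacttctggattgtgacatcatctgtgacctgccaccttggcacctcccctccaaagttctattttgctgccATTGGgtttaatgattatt
Sgms2 window 2, chr3:131490661-131490910, minus strand: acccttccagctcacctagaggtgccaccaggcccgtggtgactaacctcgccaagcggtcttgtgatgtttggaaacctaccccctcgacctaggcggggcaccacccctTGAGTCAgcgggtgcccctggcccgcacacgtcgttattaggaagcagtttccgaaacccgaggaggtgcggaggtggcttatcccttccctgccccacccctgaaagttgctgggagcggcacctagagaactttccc
Sgms1 window 3, chr19:32349317-32349566, minus strand: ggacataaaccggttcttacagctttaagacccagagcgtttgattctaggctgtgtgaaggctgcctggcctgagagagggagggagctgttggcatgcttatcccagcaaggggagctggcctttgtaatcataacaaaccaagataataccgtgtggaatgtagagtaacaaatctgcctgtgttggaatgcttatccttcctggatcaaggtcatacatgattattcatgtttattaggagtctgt
Sgms1 window 4, chr19:32211014-32211263, minus strand: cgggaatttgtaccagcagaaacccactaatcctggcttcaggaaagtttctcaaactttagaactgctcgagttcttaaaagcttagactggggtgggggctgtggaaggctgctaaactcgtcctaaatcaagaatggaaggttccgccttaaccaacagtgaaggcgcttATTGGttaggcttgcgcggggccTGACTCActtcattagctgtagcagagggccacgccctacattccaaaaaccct
Degs1, chr1:182282225-182282378, minus strand: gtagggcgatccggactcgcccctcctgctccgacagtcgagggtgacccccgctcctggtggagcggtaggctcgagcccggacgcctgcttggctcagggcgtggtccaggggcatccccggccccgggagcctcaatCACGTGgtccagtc

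Sgms2 has 6 annotated starts and Sgms1 has 4, and counts per gene do not show which start was used. AP-1 letters occurred in 5 of the 23 windows, those of Sgms1, Sgms2 and Sphk1, and in 6.75% of all 32851 RefSeq windows of this length. The C/EBP-ATF response element (CARE, TGATGNAA) was found in 1 window, a further start of Sgms2, and in 3.45% of all windows. E-box letters were in 6 windows of 5 enzymes, Cers2, Cers6, Degs1, Sgms2 and Sphk1, and in 6.02% of all windows. The GC box (GGGCGG) and the CCAAT box were each in 9 windows of 7 enzymes, beside 32.7 and 33.8% of all windows. Some windows of 1 gene share bases, and these matches are a description of letters, not of binding.

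Serine palmitoyltransferase, the first and rate-limiting enzyme of the pathway, is made of the subunits encoded by Sptlc1 and Sptlc2. Sptlc1 (chromosome 13, 53486729 to 53531449, minus strand, 15 exons) rose slightly. Its normalized counts were 890, 934, 939 and 853 with DMSO and 950, 1125, 1078 and 995 with sorafenib at 48 hours. The groups lay close together without overlap, and the fold change was 1.15 (log2 0.20, SE 0.0548, FDR = 0.00429). At 7 days the mean was 1018 ± 61.9 with DMSO and 1164 ± 28.4 with sorafenib, 1.14-fold (log2 0.19, SE 0.0531, FDR = 0.00424). When libraries were scaled by their totals alone, the 48-hour call was lost (FDR = 0.0555).

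Sptlc2, the subunit that holds the cofactor of the reaction (chromosome 12, 87351832 to 87435267, minus strand, 12 exons), was the one enzyme whose change turned its sign between the times. At 48 hours its normalized counts were 2308, 2427, 2341 and 2360 with DMSO and 3107, 3352, 3148 and 3105 with sorafenib. At 7 days they were 3671, 3779, 3520 and 3645 with DMSO and 2331, 2354, 2332 and 2385 with sorafenib. Sorafenib libraries were all above DMSO at 48 hours and all below at 7 days. Sptlc2 rose 1.35-fold at 48 hours (log2 0.43, SE 0.0333, FDR = 8.12e-10) and was 1.55-fold lower at 7 days (log2 −0.64, SE 0.0331, FDR = 1.36e-12). The difference between the responses, −1.07 on the log2 scale (SE 0.0469, FDR = 6.63e-13), was larger than the spread between libraries. DMSO cells differed too, with 1.55-fold more at 7 days than at 48 hours (FDR = 4.65e-12), and the level with sorafenib for 7 days, 2350 ± 25.3, was near that with DMSO for 48 hours, 2359 ± 50.4. As a share of the summed Sptlc1 and Sptlc2 level per kilobase, Sptlc2 went from 59.2% ± 1.0 to 63.0% ± 1.2 at 48 hours and from 66.6% ± 1.6 to 52.9% ± 0.38 at 7 days (exact permutation p = 0.0286 for either).

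Ceramide synthases differ in the fatty acid they prefer: CERS2 uses very long chains, while CERS5 and CERS6 use mainly palmitate. Cers2 and Cers6 rose at both times, and Cers5 fell at 48 hours. Cers2 (chromosome 3, 95221790 to 95234060, plus strand, 11 exons) had 2759, 2745, 2669 and 2847 normalized counts with DMSO and 4320, 4893, 4505 and 4335 with sorafenib at 48 hours. At 7 days it had 3575, 3676, 3569 and 3436 with DMSO and 6074, 6183, 6010 and 6089 with sorafenib. The rise was 1.64-fold (log2 0.71, SE 0.0379, FDR = 2.17e-12) and 1.71-fold (log2 0.77, SE 0.0374, FDR = 4.42e-13), with no overlap at either time. The 2 responses differed by 0.06 on the log2 scale (FDR = 0.408), or by 0.10 without replicate 2 of sorafenib for 48 hours (FDR = 0.029). The Cers2 end overlaps Setdb1 on the other strand, which had a mean of 3545 and 3142 normalized counts at 48 hours and went the other way, by −0.17 on the log2 scale.

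Cers6 (chromosome 2, 68691455 to 68944627, plus strand, 10 exons) had 1433, 1415, 1377 and 1435 normalized counts with DMSO and 2457, 2726, 2554 and 2441 with sorafenib at 48 hours. At 7 days the mean was 1646 ± 13.4 with DMSO and 2845 ± 31.9 with sorafenib. These groups were far apart, and Cers6 rose 1.80-fold at 48 hours (log2 0.85, SE 0.0355, FDR = 4.7e-14) and 1.73-fold at 7 days (log2 0.79, SE 0.0348, FDR = 1.04e-13). The log2 difference between the times, −0.06 (SE 0.0495), was about as large as its error (FDR = 0.416).

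Cers5 (chromosome 15, 99632477 to 99670783, minus strand, 10 exons) had 1855, 1851, 1816 and 1790 normalized counts with DMSO and 1635, 1075, 1662 and 1697 with sorafenib at 48 hours. All 4 sorafenib libraries were below all DMSO libraries, and replicate 2 was far below the others. The fall was 1.20-fold with all libraries (log2 −0.26, SE 0.089, FDR = 0.0174). Without replicate 2 the log2 fold change was −0.13 (SE 0.035, FDR = 0.000881). With all libraries the call was lost when the low-count filter was loosened (FDR = 0.0586) and when only the 8 libraries of this time were fitted (FDR = 0.0916). At 7 days the means, 1866 ± 52.6 with DMSO and 1808 ± 68.1 with sorafenib, differed by less than the test could detect (log2 −0.05, SE 0.0873, FDR = 0.688; without replicate 2 of sorafenib for 48 hours, log2 −0.04, SE 0.0312, FDR = 0.227). Over the 3 synthases, the summed level per kilobase held 50.2% ± 0.74 Cers2, 35.5% ± 0.77 Cers5 and 14.2% ± 0.063 Cers6 with DMSO for 48 hours. With sorafenib for 48 hours the shares were 59.9% ± 3.3, 21.5% ± 4.2 and 18.6% ± 0.89, or 58.3, 23.6 and 18.2% without replicate 2. At 7 days they went from 55.2% ± 0.89, 30.8% ± 0.73 and 14% ± 0.28 to 63.5% ± 0.28, 20.1% ± 0.55 and 16.4% ± 0.36. The Cers5 share was lower with sorafenib and the other 2 shares higher at both times (exact permutation p = 0.0286 for each of these 6 comparisons, with all libraries).

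Degs1 encodes the dihydroceramide desaturase that forms ceramide in the new-synthesis route (chromosome 1, 182103335 to 182110389, minus strand, 3 exons). Its normalized counts at 48 hours were 2870, 2805, 2792 and 2672 with DMSO and 5526, 6117, 5770 and 5413 with sorafenib. At 7 days they were 4268, 4606, 4437 and 4405 with DMSO and 5426, 5865, 5645 and 5757 with sorafenib. The groups did not overlap at either time, and the DMSO level was higher at 7 days. The rise was 2.05-fold at 48 hours (log2 1.03, SE 0.04, FDR = 1.28e-14) and 1.28-fold at 7 days (log2 0.36, SE 0.0392, FDR = 1.33e-07). The response at 7 days was smaller by a log2 difference of −0.68 (SE 0.0557, FDR = 7.51e-09). In DMSO cells Degs1 was 1.59-fold higher at 7 days than at 48 hours (FDR = 2.83e-11), whereas the levels with sorafenib were 5706 ± 312 at 48 hours and 5673 ± 188 at 7 days.

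Ugcg, glucosylceramide synthase, makes the first glycosphingolipid from ceramide and so draws on the substrate of Sgms1 and Sgms2 (chromosome 4, 59189035 to 59222845, plus strand, 9 exons). It had 1519, 1582, 1579 and 1490 normalized counts with DMSO and 1489, 1591, 1564 and 1504 with sorafenib at 48 hours. These libraries overlapped throughout (log2 fold change −0.01, SE 0.0416, FDR = 0.928). At 7 days its level was 1660 ± 76.1 with DMSO and 1795 ± 71.8 with sorafenib, with overlap, and the 1.08-fold difference passed the test (log2 0.11, SE 0.0407, FDR = 0.0228). That call was lost without replicate 1 or 3 of DMSO for 7 days (FDR = 0.0825 and 0.0515) and without replicate 2 or 3 of sorafenib for 7 days (FDR = 0.0914 and 0.0508). Of the summed level per kilobase of Ugcg, Sgms1 and Sgms2, Ugcg held 88.1% ± 0.67 with DMSO and 63.2% ± 0.55 with sorafenib at 48 hours. At 7 days it held 80.8% ± 0.55 and 48.3% ± 0.96. Its share was lower with sorafenib at both times (exact permutation p = 0.0286 for either) while its own fold changes were 0.996 and 1.08. With its own level nearly flat, the lower share reflects the rise of Sgms2 in the same sum. The p-value is therefore not separate support.

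**Figure D2:**
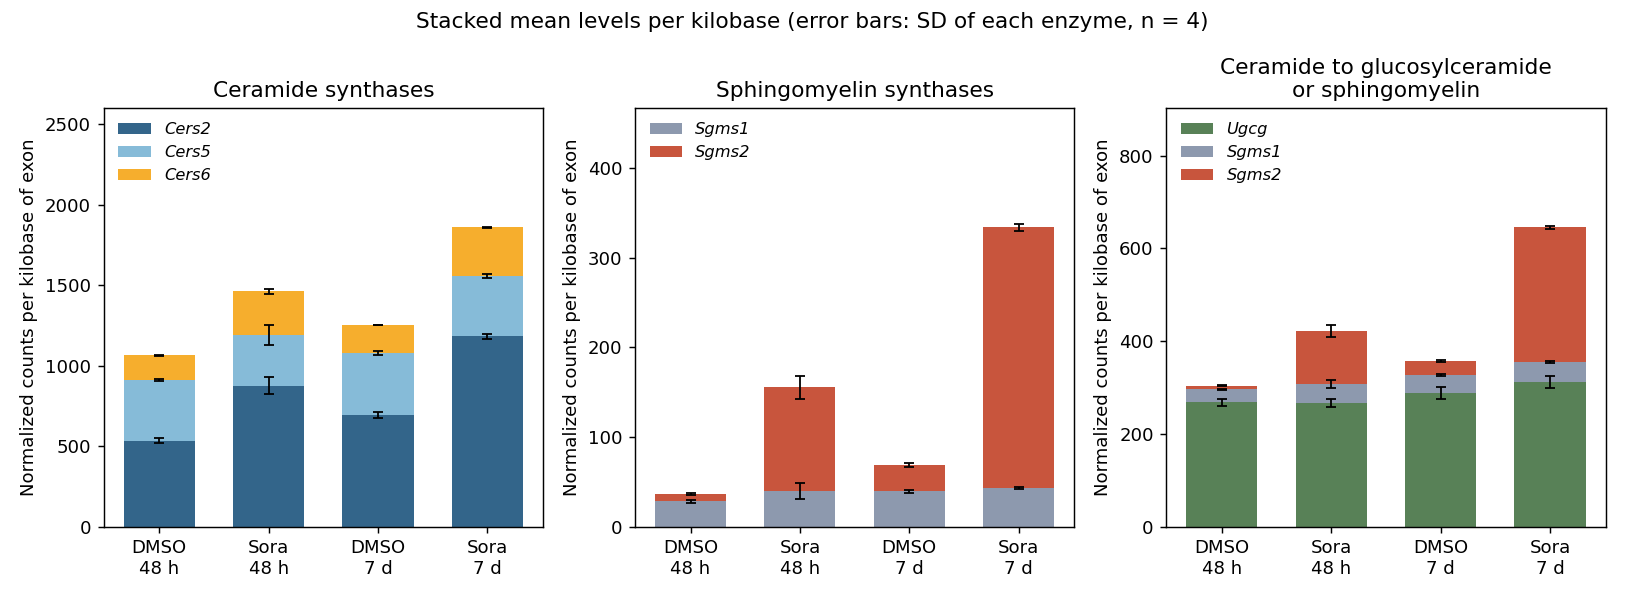
Mean level per kilobase of exon (vertical axes, normalized counts per kilobase, starting at 0) by group for the ceramide synthases, the sphingomyelin synthases and the enzymes that use ceramide; blocks are stacked, and error bars are the SD of each enzyme over 4 libraries. Sgms2 grows from the smaller to the larger block of its pair with sorafenib, at 74.3 and 87.0% of it, while the Ugcg block stays near its DMSO height.

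Sphk1, sphingosine kinase 1, makes sphingosine 1-phosphate (chromosome 11, 116421751 to 116427501, plus strand, 5 exons). It was the least abundant of the enzymes, with 18 to 176 raw counts per library. Its normalized counts were 27.4, 43.4, 32.7 and 39.8 with DMSO and 57.5, 80.1, 83.8 and 90.9 with sorafenib at 48 hours. At 7 days they were 19.5, 17.99, 23.3 and 24.1 with DMSO and 117, 143, 127 and 114 with sorafenib. Sorafenib libraries were above DMSO at both times, and further so at 7 days. Sphk1 rose 2.18-fold at 48 hours (log2 1.13, SE 0.162, FDR = 5.39e-06) and 5.89-fold at 7 days (log2 2.56, SE 0.16, FDR = 2.72e-11). With TMM scaling, all libraries and the main filter on low counts, it was the one enzyme called with a higher response at 7 days (log2 difference 1.43, SE 0.239, FDR = 6.97e-05). It was also the one enzyme with a lower DMSO level at 7 days than at 48 hours, by 1.69-fold (FDR = 0.00315).

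**Figure D3:**
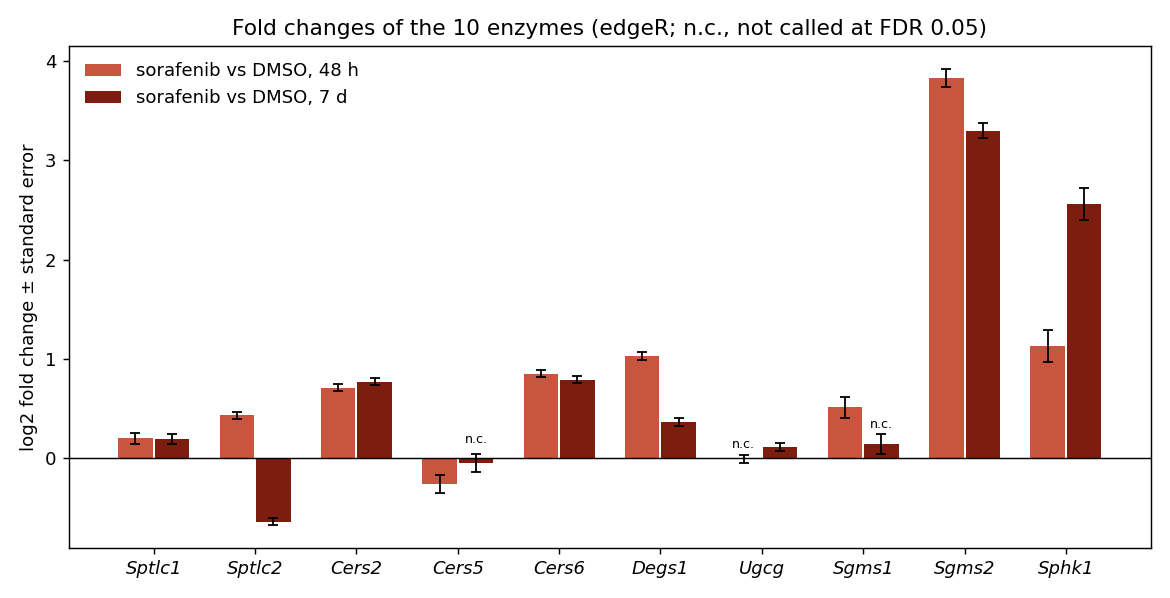
Log2 fold change of sorafenib against DMSO (vertical axis) for the 10 enzymes (horizontal axis) at 48 hours and 7 days; bars are edgeR estimates and error bars their standard errors, and n.c. marks differences that did not pass an FDR of 0.05. Sgms2 stands highest at 3.83 and 3.30, Sphk1 goes from 1.13 to 2.56, and Sptlc2 changes sign from 0.43 to −0.64.

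The treatment response differed between the times for 4 of the 10 enzymes: it was higher at 7 days for Sphk1 and lower for Sptlc2, Degs1 and Sgms2. Of all genes, 36.8% had such an interaction, 15.5% higher and 21.3% lower, so that the enzymes' share was near the background with all libraries. The median log2 interaction was −0.03 for the enzymes and 0.02 for all genes. Without replicate 2 of sorafenib for 48 hours, 7 of the 10 had an interaction, with Cers2, Ugcg and Sgms1 added, against 43.0% of all genes in that fit. With library totals in place of TMM, or a filter of at least 10 counts in every sample, 3 enzymes were called higher at 7 days. Vehicle cells differed between times as well. From 48 hours to 7 days of DMSO, 9 of the 10 enzymes changed, 8 up and 1 down, against 49.4% of all genes, 23.9% up and 25.5% down. Their median log2 difference was 0.29, and that of all genes −0.01. Sgms2 differed the most between the DMSO groups (log2 1.87), followed by Degs1 (0.67), Sptlc2 (0.63) and Sgms1 (0.47), and Cers5 (0.03, FDR = 0.813) was the enzyme that did not pass. Ugcg passed narrowly (log2 0.11, FDR = 0.0368) and lost its call without any 1 of 5 DMSO libraries: replicates 1 and 4 of 48 hours and replicates 2, 3 and 4 of 7 days (FDR 0.0569 to 0.152). With library totals in place of TMM, 7 of the 10 were called, 6 of them up, as Sptlc1 (FDR = 0.0894) and Ugcg (FDR = 0.381) missed the threshold. Time in culture and harvest went together, so that they cannot be told apart, and these DMSO libraries are also the reference for the sorafenib comparisons.

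By level per kilobase, Degs1, Cers2 and Cers5 came first, second and next in all 4 groups, and Sphk1 was last. Degs1 had 742 ± 22.0 normalized counts per kilobase with DMSO for 48 hours, 1520 ± 83.0 with sorafenib for 48 hours, 1179 ± 37.0 with DMSO for 7 days and 1511 ± 49.99 with sorafenib for 7 days. With lengths of the longest transcript, Cers2 stood above Degs1 with DMSO for 48 hours and with sorafenib for 7 days, so that their order is not settled. With these lengths Sptlc2 (462.7) also stood just above Cers5 (461.3) with sorafenib for 48 hours. Sgms2 was ninth of 10 in both DMSO groups, at 8.09 ± 1.05 and 29.4 ± 2.49, eighth with sorafenib for 48 hours at 116 ± 12.99, and sixth with sorafenib for 7 days at 291 ± 3.84. Sgms2 and Sphk1, at 6.45 ± 1.29, overlapped with DMSO for 48 hours. With sorafenib for 48 hours the libraries of Cers5, Cers6, Sptlc2 and Ugcg overlapped, at means from 267 to 314 per kilobase. The overlap of Cers5 rested on replicate 2, its lowest library at 222.5 per kilobase, which is part of its mean of 314. Its other libraries lay above the highest of Cers6, at 291.4. Ugcg overlapped with Sptlc2 with DMSO for 7 days and with Cers6 with sorafenib for 7 days.

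The profile of Sgms2, the enzyme with the widest range of group means (5.16 on the log2 scale), was compared with 10659 other genes of at least 100 raw counts on average. Over the 16 libraries its log2 normalized counts correlated most with Iqgap1 (Pearson r = 0.999), a scaffold protein of the cytoskeleton, Ccdc9b (0.998), Prkab2 (0.998), a regulatory subunit of AMP-activated protein kinase, Card19 (0.997) and Tlk2 (0.997). Iqgap1 had a mean of 4521 and 15647 normalized counts with DMSO and sorafenib at 48 hours and 8202 and 22759 at 7 days. The 16 points share 4 groups, and the correlations describe group means more than single libraries.

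Other genes of sphingolipid metabolism were taken from 8 lists by role, with 63 genes, of which 58 could be tested. At 48 hours 43 of the 58 changed, 21 up and 22 down, beside 54.6% of all genes, and at 7 days 44 changed, 23 up and 21 down, beside 56.8%. Their median log2 fold changes were −0.10 and −0.02. The interaction was called for 34 of them (15 up, 19 down; 36.8% of all genes), and 38 differed between the DMSO groups (16 up, 22 down; 49.4% of all genes). Counts in the single lists below stand beside 26.9% of all genes up and 27.7% down at 48 hours, and 28.9% up and 27.9% down at 7 days; the lists are small, and none was tested as a set.

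Among the partners and controls of serine palmitoyltransferase, 2 of 6 tested rose and 3 fell at 48 hours, and 1 rose and 3 fell at 7 days. Ormdl2, one of the ORMDL proteins that hold the enzyme back, fell (496 to 339 normalized counts at 48 hours and 489 to 290 at 7 days, log2 −0.55 and −0.76). Ormdl1 fell less (log2 −0.24 and −0.27). Ormdl3 had the highest level of the ORMDL genes, with a mean of 1342 normalized counts over all libraries. It rose at 48 hours (log2 0.21, FDR = 3.56e-05) and did not pass the test at 7 days (log2 −0.08, FDR = 0.0676). Kdsr, the reductase of the next step, rose (670 to 877 and 540 to 878, log2 0.39 and 0.70). Of the other ceramide synthases and desaturase, 2 of 4 tested fell at either time and none rose. Cers4, whose product prefers long-chain fatty acids, had 1003 ± 18.7 normalized counts with DMSO and 214 ± 15.5 with sorafenib at 48 hours, and 666 ± 60.8 and 62.8 ± 8.24 at 7 days (log2 −2.23 and −3.39, FDR = 7.07e-16 and 1.52e-17). Its response thus had the opposite sign to those of Cers2 and Cers6.

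Ceramidases, which release sphingosine, rose in 3 of 4 tested at both times. Asah2, the neutral ceramidase, went from 156 to 242 and from 118 to 276 normalized counts (log2 0.65 and 1.22), and Acer3, an alkaline one, from 450 to 779 and from 532 to 947 (log2 0.79 and 0.83). Asah2 lies on chromosome 19, after the place where counts of replicate 2 were lowered, and its mean with sorafenib for 48 hours was 257 without that library. In sphingomyelin turnover, 3 of 8 rose and 4 fell at 48 hours, and 2 rose and 4 fell at 7 days. Smpdl3b, a membrane-bound phosphodiesterase related to acid sphingomyelinase, fell from 2699 to 1039 and from 2573 to 376 normalized counts (log2 −1.38 and −2.77). Samd8, the sphingomyelin synthase relative that makes ceramide phosphoethanolamine, rose from 844 to 2340 and from 1448 to 1962 (log2 1.47 and 0.44).

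In the sphingosine 1-phosphate list, 5 of 11 tested rose and 4 fell at 48 hours, and 5 rose and 2 fell at 7 days. Sgpl1, the lyase that destroys sphingosine 1-phosphate, rose beside Sphk1, which makes it. Sgpl1 went from 1753 to 3365 and from 2029 to 3215 normalized counts (log2 0.94 and 0.66). Spns2, its exporter, went from 142 to 235 and from 210 to 279 (log2 0.72 and 0.41). Of ceramide kinase and 4 lipid transfer proteins, 1 rose at either time, and 2 fell at 48 hours and 3 at 7 days. Cptp, a transfer protein for ceramide 1-phosphate, rose (log2 0.35 and 0.51), and Plekha8, a glucosylceramide transfer protein of the Golgi, fell (log2 −0.27 and −0.59).

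In glycosphingolipid synthesis, 1 of 9 genes rose and 4 fell at 48 hours, and 2 rose and 6 fell at 7 days. St8sia1, the sialyltransferase that makes ganglioside GD3, fell the most of the genes named here. It had 3258 ± 92.3 normalized counts with DMSO and 552 ± 77.6 with sorafenib at 48 hours, and 1628 ± 106 and 59.4 ± 9.67 at 7 days (log2 −2.57 and −4.76, FDR = 2.22e-16 and 1.36e-18). B4galt6, a lactosylceramide synthase, fell less (log2 −0.33 and −0.76), and its counts are among those lowered in replicate 2. Its mean with sorafenib for 48 hours was 1481 ± 325 with that library and 1643 ± 43.1 without it, beside 1876 ± 25.5 with DMSO. In glycosphingolipid breakdown, which is lysosomal except for Gba2, 6 of 11 genes rose and 3 fell at 48 hours, and 9 rose and 1 fell at 7 days. Hexa, which encodes a lysosomal hydrolase of ganglioside breakdown, rose from 1147 to 2176 normalized counts at 48 hours and from 732 to 1779 at 7 days (log2 0.92 and 1.28). Between the DMSO groups, 8 of these 11 genes fell and none rose, beside 25.5% of all genes down and 23.9% up. Of the other genes of all 8 lists, 11 lie where counts of replicate 2 were lowered. Without that library, the genes called at 48 hours numbered the same in 5 of the 8 lists and 1 more in each of the others: sphingosine 1-phosphate (10), ceramide kinase and transfer proteins (4) and glycosphingolipid breakdown (10). Over all genes, 11158 were called at 48 hours with all libraries and 10609 to 11608 with any 1 library left out.

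**Figure D4:**
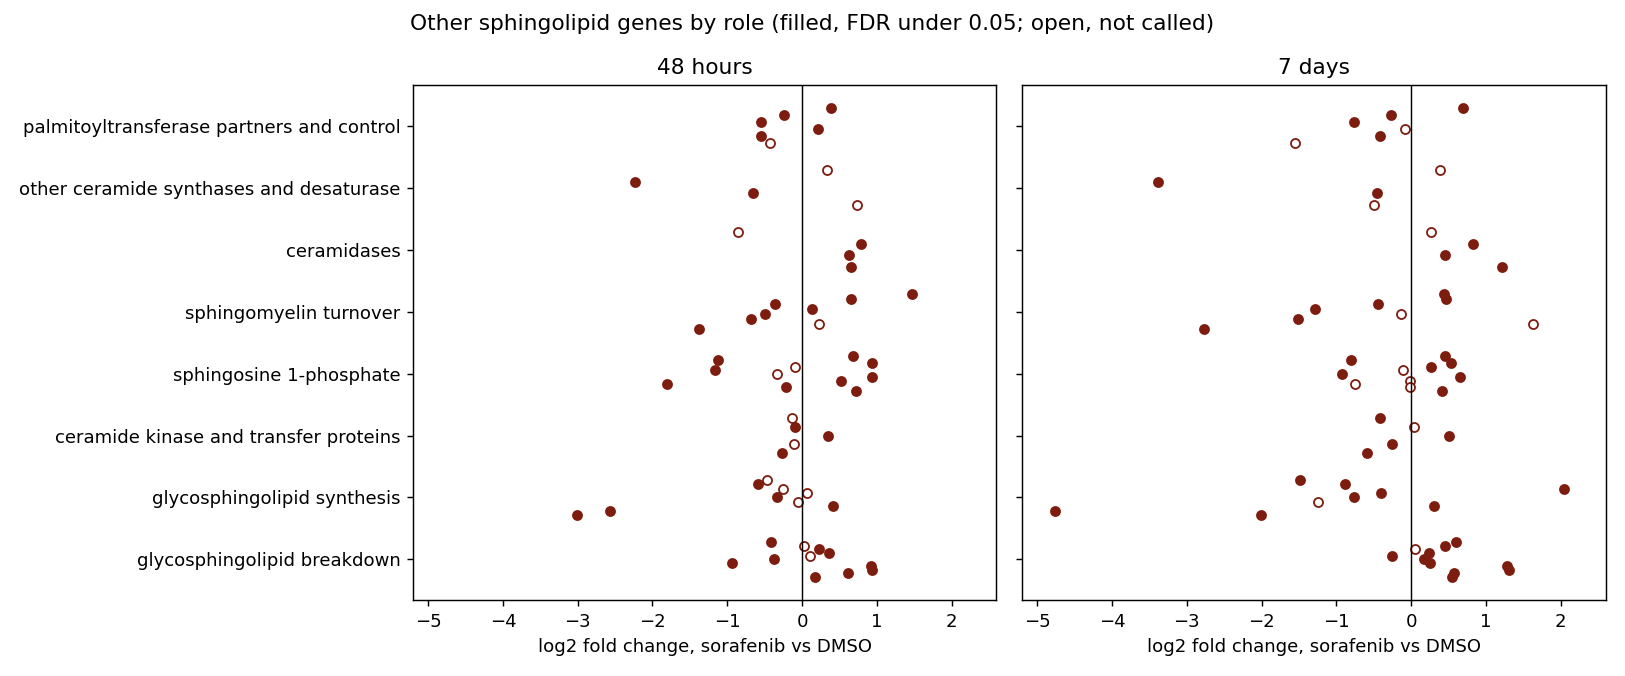
Log2 fold change of sorafenib against DMSO (horizontal axes) for the 58 other sphingolipid genes tested, by role (vertical axis), at 48 hours and 7 days; each point is a gene, filled where the FDR was under 0.05. Synthesis of glycosphingolipids reaches furthest to the left, down to −3.01 at 48 hours and to −4.76 (St8sia1) at 7 days, and 9 of the 11 breakdown genes were up at 7 days.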

How the data were processed

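RNA from 16 libraries of p53−/−; Myc hepatoblasts, 4 in each of 4 groups, was prepared by the authors with a stranded mRNA kit. Per the submitters' processing notes, reads were aligned with STAR 2.7.1a to GRCm39, and featureCounts 2.0.6 and DESeq2 1.40.2 are named too; the strand setting of the counting was not given in the sources used here. The deposited values are raw counts per gene, whole numbers with no normalization, for 40840 genes; 20396 with fewer than 10 counts over all samples were removed.

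Counts were tested with the edgeR 4.0.16 quasi-likelihood test in R 4.3.3 after TMM normalization, with 1 coefficient a group and no block, and Benjamini-Hochberg FDR over all 20444 genes at 0.05. Normalized counts are counts divided by library total times TMM factor, scaled by the geometric mean of this product across libraries. Shares and levels per kilobase used the union of exons in GENCODE vM39. Shares and single genes had exact two-sided permutation tests of 4 against 4 libraries. Named genes other than the 10 enzymes were those with the largest absolute log2 fold change in each role list, limited to called genes that average 100 normalized counts or more (at most 4 a list, 1 or 2 here); 1 such gene is not reported here. The members and lists were chosen with earlier results of these data known. The steps were tested on simulated data. Alternatives were DESeq2 1.42.0, DESeq2 size factors or library totals for scaling, other filters, a fold threshold, the 8 libraries of 1 comparison, the replicate number as a block, limma 3.58.1 voom, and each library left out. Totals were 16586254 to 30828427 counts. Even the closest pair of replicates had a chi-square of 1.58 per gene, where counting error alone gives 1. Replicate 4 of DMSO for 7 days had 53.1 to 71.5 against replicates 1 to 3, which had 1.94 to 3.2 among themselves. In DMSO for 48 hours, replicates 1 and 4 had 18.7 to 42.7 against replicates 2 and 3, and 5.09 and 5.95 within these pairs. Replicate 2 of sorafenib for 48 hours had 32.6 to 38 against its group. The cause of these splits was not tested.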

Additional observations from a re-analysis of the deposited data

Results flagged for a closer look

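In a group of 4 libraries, a single library stood apart from the other 3 for 4 of 96 groups of 4 examined, where chance gives about 1 in 20. Replicate 2 of sorafenib for 48 hours was the lowest for Cers5 (1075.1 normalized counts), Sgms1 (502.0) and B4galt6 (996.5), all genes in the region where this library had fewer counts. Replicate 4 of that group was the highest for Ormdl2 (356.6).

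The response to sorafenib differed between 48 hours and 7 days, by the edgeR test of the interaction at an FDR of 0.05, for 15 of the 24 genes named in the text, beside 36.8% of all genes; 14 of the 24 were named for the largest fold changes in their lists. Among the 10 enzymes the log2 difference, 7 days against 48 hours, was −1.07 for Sptlc2, −0.68 for Degs1, −0.54 for Sgms2 and 1.43 for Sphk1. Among the other genes it was −0.21 for Ormdl2, −1.15 for Cers4, −1.39 for Smpdl3b, −1.03 for Samd8, −0.28 for Sgpl1, −0.32 for Plekha8, −2.19 for St8sia1 and −0.43 for B4galt6. It was 0.31 for Kdsr, 0.57 for Asah2 and 0.36 for Hexa.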

How the results depend on the processing

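With an added threshold of an absolute log2 fold change of 1, 3 of the 10 enzymes passed at 48 hours (3 up, 0 down) and 2 at 7 days (2 up, 0 down), 2 had an interaction (1 of them lower) and 1 differed between the DMSO groups (1 up, 0 down); over all genes the counts became 3690, 4202, 1965 and 2242. With the low-count filter loosened to 1 count in any sample, or with only the 8 libraries of the comparison, 0 enzymes fell at 48 hours, since Cers5 missed the threshold. With library totals only, or at least 10 counts in every sample, 3 enzymes had a higher interaction instead of 1. Leaving out each library in turn, the enzymes called numbered 9 to 9 at 48 hours, 7 to 9 at 7 days, 4 to 7 for the interaction (1 to 3 higher, 3 to 4 lower) and 8 to 9 between the DMSO groups. The 7 were reached without replicate 2 of sorafenib for 48 hours (3 higher), and 2 were higher without replicate 4 of DMSO for 48 hours. With DESeq2, its size factors or the replicate number as a block, the enzymes called numbered 9, 8, 4 and 9, as in the report. With limma voom the enzymes called numbered 9, 9, 5 and 9, with 8 up at 7 days and 4 lower interactions. With only the 8 libraries of the comparison, 9 were called at 7 days, 8 of them up.

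The replicate block left 10644 of all genes called at 48 hours and 11027 at 7 days. Correlations of deviations from the group means were −0.05 to 0.01 at 48 hours and −0.01 to 0.12 at 7 days for libraries with the same number. For libraries with different numbers they were −0.040 to 0.071 at 48 hours and −0.157 to 0.110 at 7 days. So few pairs cannot show whether libraries with the same number share more than the number.

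Small differences that did not pass the test changed sign. The Sptlc1 interaction became 0.0096 with DESeq2, 0.0103 with its size factors in edgeR, 0.0135 with voom, 0.0872 with library totals and 0.0592 with at least 10 counts in every sample, and ranged from −0.0461 to 0.0484 with single libraries left out. The Cers6 interaction became 0.0368 with library totals and 0.0092 with at least 10 counts in every sample. Cers5 between the DMSO groups became −0.0287 with library totals. Ugcg at 48 hours became 0.0338 with the loosened filter and ranged from −0.052 to 0.0074 with single libraries left out. The cause was not tested. Depth limits Sphk1 most, at 18 to 176 counts per library.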
